A study of Mus musculus with 7 samples.

Results

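Fibroblast growth factor (FGF) signalling was followed in the lower incisor epithelium of newborn pups through 10 named genes. They are the ligand family genes Fgf2, Fgf3, Fgf9, Fgf10 and Fgf13, the receptors Fgfr1, Fgfr2 and Fgfr3, and the feedback inhibitors Spry2 and Spry4. The members were chosen by name, all 10 were found among the 25700 genes in the count files, and all 10 were among the 14791 genes that passed the filter on low counts. The study asked how deletion of Nogo-A, a membrane protein of the reticulon family, alters gene expression in dental epithelium. The libraries came from 4 K14;Nogo-A pups (replicates 1, 2, 7 and 10), whose genotype reads K14cre cre/+; Nogo-A fl/fl, and from 3 wild-type pups (labelled wt, replicates 3, 8 and 9), all newborn, at postnatal day 0. Each library held epithelium that Dispase had freed from both lower incisors of 1 pup, taken by the series text from its posterior part. So n counts pups, and every p sets a difference between the genotypes against the spread between pups. In K14;Nogo-A pups the keratin 14 promoter drives Cre, so recombination reaches all epithelia that express keratin 14 and is not limited to the incisor. The wild-type pups were littermates, and whether they carried floxed alleles is not stated.

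FGFs are secreted signals that bind tyrosine kinase receptors together with heparan sulfate chains on the cell surface. In the mouse tooth, Fgf3 and Fgf10 are made mainly by the mesenchyme and act on the epithelium through the IIIb forms of Fgfr1 and Fgfr2, whereas Fgf9 is made by the epithelium and acts through IIIc forms. The exchange keeps the epithelial stem cells of the continuously growing incisor. Sprouty proteins are induced by the pathway and dampen it inside the cell, in the mouse molar mainly Spry2 in epithelium and Spry4 in mesenchyme. Fgf13 belongs to the FGF homologous factors, which stay inside the cell, bind sodium channels and microtubules, and do not act through FGF receptors.

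The libraries held 20929207 to 29728532 counts on genes in K14;Nogo-A against 21021158 to 41219439 in wild-type. CPM here relates the counts of a gene to the library size after TMM scaling. Rtn4, the gene of Nogo-A, was at 297 to 344 CPM in K14;Nogo-A and 277 to 346 CPM in wild-type. These counts also take in the Nogo-B and Nogo-C transcripts, so they do not check the genotypes, which are given as labelled. All 12 markers of epithelium, the labelled tissue, had at least 61 counts in every library, and all 24 mesenchyme markers had at least 59. The epithelium markers summed to 8010 to 9410 CPM in K14;Nogo-A against 5880 to 9380 CPM in wild-type. The mesenchyme markers summed to 12600 to 35000 CPM in K14;Nogo-A against 28900 to 43900 CPM in wild-type. The levels below are therefore those of a mixture of tissues. Mesenchyme markers had a mean log2 CPM of 6.99 to 7.28 in K14;Nogo-A against 7.68 to 7.82 in wild-type, a difference of -0.62 (exact two-sided permutation test, p = 0.0286, the smallest that 35 splits can give, and adjusted p = 0.256 over 9 marker lists). On the same scale, 4 Y-linked genes (Uty, Kdm5d, Ddx3y and Eif2s3y) averaged 5.27 in K14;Nogo-A replicate 1, against 5.13 and 4.94 in wild-type replicates 3 and 8, while the other 3 K14;Nogo-A libraries lay at -3.71 to -3.04 and wild-type replicate 9 at -3.45. The labels give no sex. Y-linked genes are carried by males, so by these levels K14;Nogo-A replicate 1 and wild-type replicates 3 and 8 were male. The other libraries were female by the same levels, so sex was unbalanced between the genotypes.

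Levels of different genes were compared as CPM per kb of annotated exon. Fgfr1 was the highest of the 10 members, with a mean of 75.6 CPM per kb over the 7 libraries and a range of 65.0 to 83.3. Fgfr2 followed at 15.2 (13.9 to 16.2) and Spry2 at 10.7 (9.09 to 13.4). The ranges of these 3 genes did not overlap each other or that of Fgf3, the highest ligand. Fgf3 (5.17), Spry4 (4.30), Fgf10 (3.39), Fgfr3 (3.14), Fgf9 (2.53) and Fgf13 (1.73) formed a run in which each range overlapped that of the next gene. Fgf3 lay above Spry4 in 5 of the 7 libraries and Fgf10 above Fgfr3 in 4, so these neighbours had no stable order. Fgf2 was the lowest member, at 0.502 (0.361 to 0.758), below Fgf13 in all 7 libraries.

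**Figure D1:**
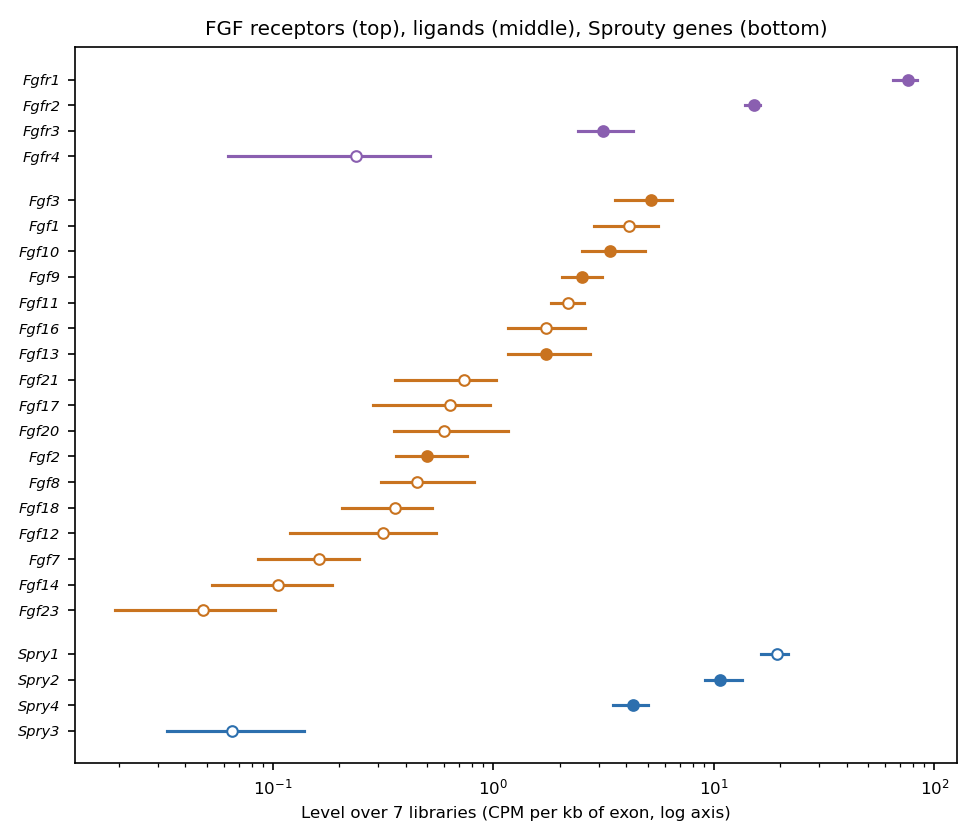
Levels of FGF receptors, ligands and Sprouty genes in CPM per kb of exon on a log axis. Points are means over the 7 libraries, lines run from the lowest to the highest library, filled points are the 10 members and open points other genes of the family. Ligands at 0 in any library are left out. Fgfr1 lies highest at 75.6 CPM per kb, and Fgf2 lies at 0.502.

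Within the 22 mouse ligand family genes, Fgf3 took 14.8% to 23.5% of the summed CPM per kb in K14;Nogo-A against 17.1% to 23.6% in wild-type. Fgf1, which is no member and binds all FGF receptors, took 15.7% to 21% in K14;Nogo-A against 11% to 16.4% in wild-type. The share of Fgf10 was 11.8% to 15.2% in K14;Nogo-A against 11.4% to 17.3% in wild-type. The order of these 3 genes differed between libraries. Fgf1 was above Fgf3 in K14;Nogo-A replicates 1 and 7, and Fgf10 was above Fgf1 in wild-type replicates 3 and 8. The share of Fgf2 was 1.49% to 1.78% in K14;Nogo-A against 2.28% to 2.91% in wild-type, with no overlap between the genotypes. This share draws on the same counts as the level of Fgf2 given below and is no separate result. In CPM, 6.09% of all genes tested had every K14;Nogo-A library below every wild-type library.

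Against wild-type, Fgf2 and Fgf13 had the largest log2 fold changes of the 10 members in size, followed by the receptor Fgfr3. Fgf2 and Fgf13 were lower in K14;Nogo-A past the study's thresholds, which ask for P of at most 0.05, unadjusted, and a log2 fold change of 0.5 or more either way. That is 2 of 10 members, where 2.74% of all genes tested were lower and 2.02% higher past the same thresholds. The paper had already reported Fgf2 and Fgf13 as downregulated in the RNA sequencing of this study. A share among members that include them is therefore no independent evidence. No member was higher past them. None rose or fell at an adjusted p under 0.05 in edgeR's quasi-likelihood test, a rule that called 0.0338% of all genes. At an unadjusted p under 0.05 the members held 0 higher and 3 lower genes, Fgf2, Fgf13 and Fgfr3, where 6.25% of all genes tested were higher and 6.66% lower. With Benjamini-Hochberg adjustment, the likelihood-ratio test of edgeR, DESeq2 and limma-voom each called 0 members as well. All 5 ligands had negative log2 fold changes, and over the 10 members 8 were negative and 2 positive, with a median of -0.15 against -0.01 over all genes tested. In these bulk libraries, fewer cells of a type and less RNA per cell cannot be told apart.

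**Figure D2:**
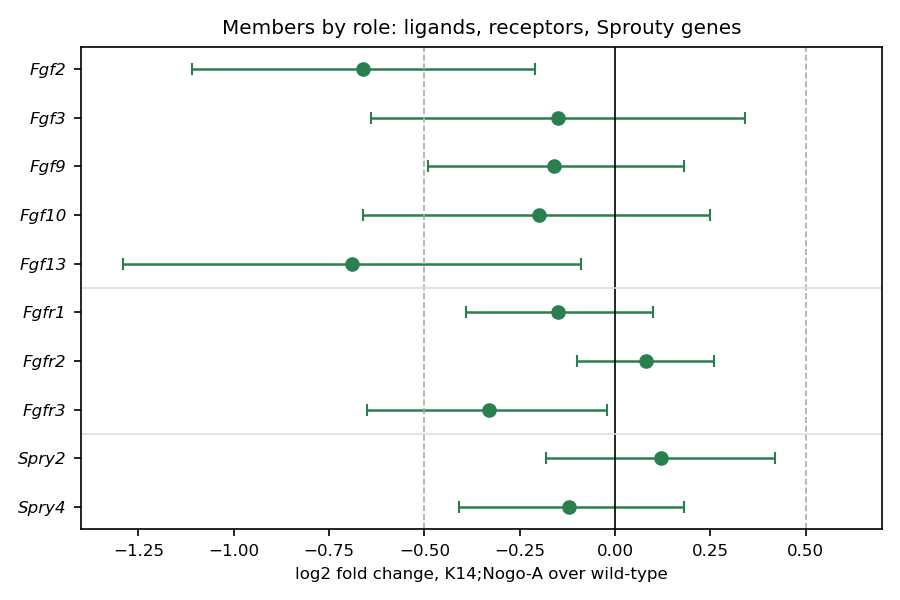
Log2 fold changes of the 10 members, K14;Nogo-A over wild-type, from edgeR's quasi-likelihood fit, in blocks of ligands, receptors and Sprouty genes. Points are estimates, bars are 95% intervals and dashed lines mark 0.5 in either direction. Fgf2 at -0.66 and Fgf13 at -0.69 lie beyond the dashed line on the left, and the other members lie between -0.33 and 0.12.

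Fgf2, basic FGF, is a heparin-binding growth factor that lacks a classical signal peptide (ENSMUSG00000037225, chromosome 3 of GRCm38 from 37348346 to 37410108, plus strand). It had 2.45, 3.18, 2.79 and 2.52 CPM in K14;Nogo-A replicates 1, 2, 7 and 10, against 4.34, 5.14 and 3.41 CPM in wild-type replicates 3, 8 and 9. Every K14;Nogo-A library was below every wild-type library, and Fgf2 was the 1 member of 10 with no overlap. Over all genes tested, 6.09% lay below in this way and 5.43% above. K14;Nogo-A averaged 2.73 ± 0.334 CPM (SD, n = 4) against 4.30 ± 0.865 CPM (SD, n = 3) for wild-type. On the log2 scale the fold change was -0.66 (standard error 0.21, 95% interval -1.11 to -0.21). edgeR's quasi-likelihood test gave p = 0.0075 and adjusted p = 0.25, and the exact permutation test p = 0.0286. The estimate rests on 53 to 211 counts a library. Without wild-type replicate 8, the highest library, it was -0.51 and no longer past the study's thresholds (unadjusted p = 0.052 in edgeR's test). Nudt6, on the opposite strand, shares 640 bp, 9.44% of the exon length of Fgf2, and no source used here states whether counting used the strand. Nudt6 itself was at 3.35 ± 0.577 CPM in K14;Nogo-A and 3.75 ± 0.283 CPM in wild-type (log2 fold change -0.16, standard error 0.20, adjusted p = 0.77).

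Fgf13 lies on the X chromosome (ENSMUSG00000031137, GRCm38, from 59062145 to 59568071, minus strand). It had 7.06, 4.73, 4.85 and 5.57 CPM in K14;Nogo-A replicates 1, 2, 7 and 10, against 11, 10.9 and 4.66 CPM in wild-type replicates 3, 8 and 9. The genotypes overlapped, since wild-type replicate 9 was the lowest of all 7 libraries while the other wild-type libraries were the highest. K14;Nogo-A averaged 5.55 ± 1.07 CPM (SD, n = 4) against 8.84 ± 3.62 CPM (SD, n = 3) for wild-type, with a 2.36-fold range among wild-type pups. The log2 fold change was -0.69 (standard error 0.27, 95% interval -1.29 to -0.09, adjusted p = 0.33 and unadjusted p = 0.028 in edgeR's quasi-likelihood test, exact permutation p = 0.257). The Y-linked genes moved with it. In the 3 libraries where these were high, Fgf13 had 7.06 CPM in K14;Nogo-A replicate 1 against 11 and 10.9 CPM in wild-type replicates 3 and 8. In the other 4 it had 4.73, 4.85 and 5.57 CPM in K14;Nogo-A and 4.66 CPM in wild-type replicate 9, so wild-type replicate 9, the single wild-type library there, was below all of them. A fit that took the mean of the Y-linked genes as covariate gave -0.28 (adjusted p = 0.59). It was -0.97 without wild-type replicate 9 (adjusted p = 0.05). Leaving out wild-type replicate 3 or 8 gave -0.50 or -0.51, with P above 0.05. Without K14;Nogo-A replicate 2, 7 or 10 the estimates of -0.62, -0.63 and -0.69 missed the P threshold as well.

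**Figure D3:**
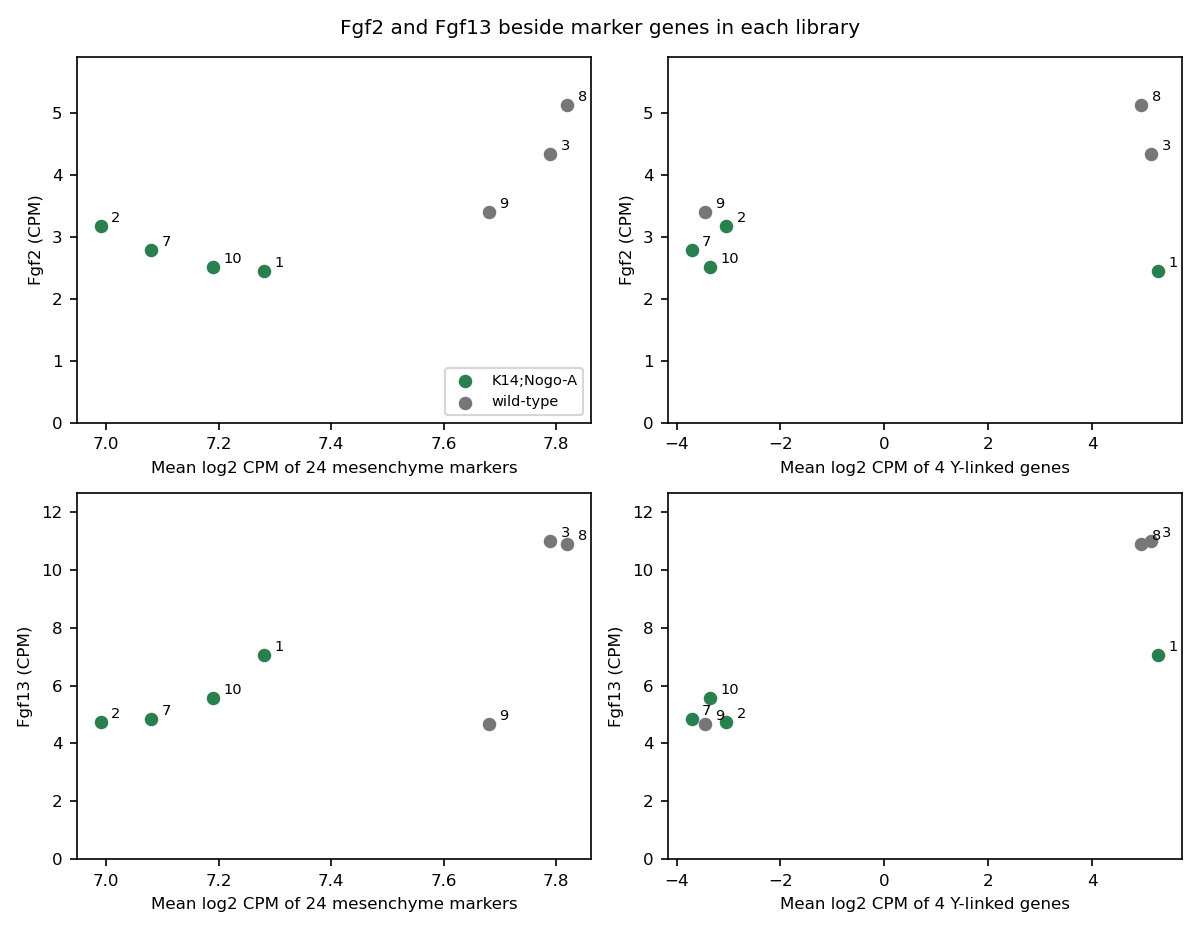
Fgf2 (top) and Fgf13 (bottom) in CPM against the mean log2 CPM of 24 mesenchyme markers (left) and of 4 Y-linked genes (right), with 1 point per library, numbered by replicate, K14;Nogo-A in green and wild-type in grey. Mesenchyme markers part the genotypes, at 6.99 to 7.28 in K14;Nogo-A against 7.68 to 7.82 in wild-type. Fgf13 lies at 4.66 to 5.57 CPM in the 4 libraries with low Y-linked genes and at 7.06 to 11 CPM in the 3 with high ones.

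The promoters of these 2 ligand genes are shown because they are the members past the study's thresholds and because gene counts add up all transcript starts. RefSeq promoter windows on GRCm38.p6 matched 8 of the 10 members. Each sequence gives the 250 bases before a transcript start, 5′ to 3′ on the gene's strand, with CG dinucleotides in capitals. All such windows in the table had a median of 6 CG dinucleotides and 52.4% G and C. The Fgf2 window (chr3:37348403-37348652, plus strand) held 20 CG dinucleotides, and at least that many occur in 17.9% of all windows. Fgf13 had 4 windows whose starts span 451 kb on the minus strand of X. The outermost lies beyond the gene as annotated in GENCODE M21 and held 2 CG dinucleotides. The next (chrX:59567349-59567598) held 33, reached by 4.03% of all windows, and the innermost (chrX:59134437-59134686) held 31, reached by 5.19%. Of the Fgf13 starts in RefSeq, the most 5′ one inside the counted gene and the innermost one are printed. The Fgf2 window and both printed Fgf13 windows lie within the genes as annotated in GENCODE M21. Which starts were used in these libraries was not analysed here.
Fgf2: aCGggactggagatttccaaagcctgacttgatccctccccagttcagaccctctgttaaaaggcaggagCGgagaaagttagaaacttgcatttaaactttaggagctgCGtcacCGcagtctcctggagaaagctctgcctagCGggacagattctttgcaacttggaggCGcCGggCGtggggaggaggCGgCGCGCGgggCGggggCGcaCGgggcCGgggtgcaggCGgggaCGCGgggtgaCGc
Fgf13, 5′ start: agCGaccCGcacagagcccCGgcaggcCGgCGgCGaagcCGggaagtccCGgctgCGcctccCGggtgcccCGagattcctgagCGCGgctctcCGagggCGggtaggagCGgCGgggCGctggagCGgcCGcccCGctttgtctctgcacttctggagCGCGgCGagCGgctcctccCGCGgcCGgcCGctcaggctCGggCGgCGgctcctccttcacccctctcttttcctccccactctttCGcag
Fgf13, innermost start: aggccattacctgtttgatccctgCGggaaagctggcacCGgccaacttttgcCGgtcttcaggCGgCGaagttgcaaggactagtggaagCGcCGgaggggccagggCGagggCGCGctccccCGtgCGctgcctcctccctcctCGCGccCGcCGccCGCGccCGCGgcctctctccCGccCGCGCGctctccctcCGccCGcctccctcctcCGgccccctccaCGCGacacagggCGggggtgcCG

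Fgf3 and Fgf10, the mesenchymal ligands that sustain growth of the incisor epithelium, overlapped between the genotypes. Fgf3 (ENSMUSG00000031074, chr7:144838083-144844436) had 8.31, 14.4, 10.3 and 13.1 CPM in K14;Nogo-A replicates 1, 2, 7 and 10, against 15.1, 14.3 and 8.74 CPM in wild-type replicates 3, 8 and 9. Each genotype held libraries near 8 and near 14 CPM, and the groups overlapped over most of their range. Its log2 fold change was -0.15 (standard error 0.22, 95% interval -0.64 to 0.34, adjusted p = 0.81), and it ran from -0.34 without wild-type replicate 9 to -0.01 without wild-type replicate 3. Fgf10 (ENSMUSG00000021732, chr13:118669791-118792115) had 13.1, 18.6, 13.1 and 13.9 CPM in K14;Nogo-A, in the same replicate order, against 22.4, 16.5 and 11.5 CPM in wild-type. Wild-type replicates 3 and 9 were its highest and lowest libraries and enclosed the whole K14;Nogo-A range. Its log2 fold change was -0.20 (standard error 0.21, 95% interval -0.66 to 0.25, adjusted p = 0.71), and it was -0.39 without wild-type replicate 9 and 0.06 without wild-type replicate 3. The ratio of Fgf3 to Fgf10, both per kb of exon, was 1.55 ± 0.252 (SD, n = 4) in K14;Nogo-A against 1.52 ± 0.192 (SD, n = 3) in wild-type (p = 0.829 in an exact two-sided permutation test, adjusted p = 0.829 over 2 ratios).

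Fgf9 (ENSMUSG00000021974, chr14:58070547-58112720), the epithelial ligand, had 13.3, 10.5, 9.49 and 11.7 CPM in K14;Nogo-A replicates 1, 2, 7 and 10, against 10.9, 14.5 and 12.2 CPM in wild-type replicates 3, 8 and 9. The groups overlapped and the spread within each was as large as the gap between the means, 11.2 ± 1.64 CPM (SD, n = 4) for K14;Nogo-A against 12.5 ± 1.82 CPM (SD, n = 3) for wild-type. This gave a log2 fold change of -0.16 (standard error 0.16, 95% interval -0.49 to 0.18, adjusted p = 0.70), with -0.25 without wild-type replicate 3 and -0.03 without wild-type replicate 8. The intervals of Fgf3, Fgf9 and Fgf10 together reach from -0.66 to 0.34, so these data do not show that the genotypes were alike in them.

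**Figure D4:**
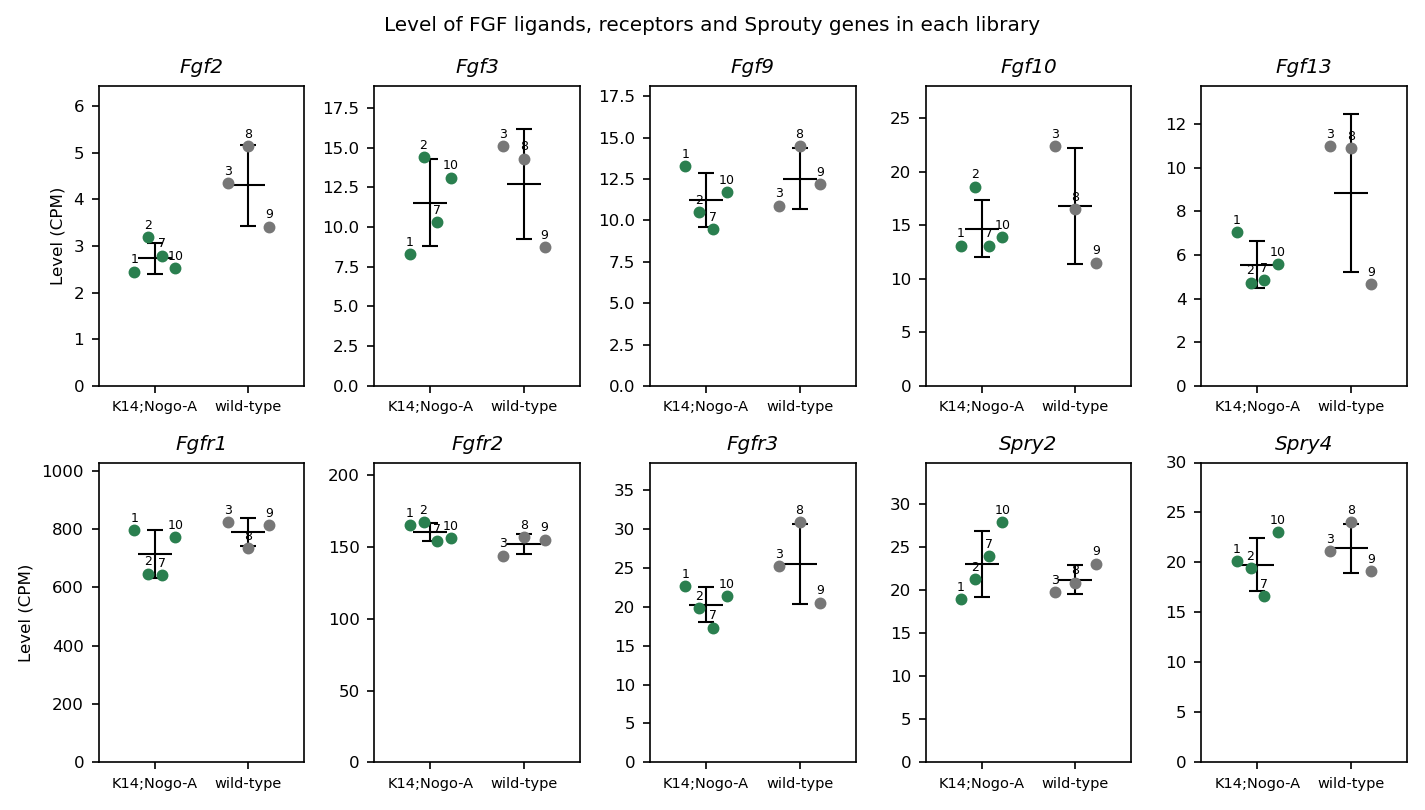
Level of each of the 10 members in CPM, with K14;Nogo-A libraries (n = 4, green) on the left and wild-type libraries (n = 3, grey) on the right of each panel. Points are libraries numbered by replicate, and bars give the mean and SD. Each vertical axis starts at 0 and has its own scale. In Fgf2 all K14;Nogo-A points, 2.45 to 3.18 CPM, lie below the wild-type points, 3.41 to 5.14 CPM, and in the other 9 panels the groups overlap.

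Among the 10 members, the receptors Fgfr1 and Fgfr2 had the smallest spread between pups of a genotype. Fgfr1 (ENSMUSG00000031565, chr8:25513654-25575718), the receptor kinase of highest level here, had 796, 647, 642 and 771 CPM in K14;Nogo-A replicates 1, 2, 7 and 10, against 822, 734 and 812 CPM in wild-type replicates 3, 8 and 9. Replicates 2 and 7 lay below every wild-type library and the other K14;Nogo-A libraries within the wild-type range. The log2 fold change was -0.15 (standard error 0.11, 95% interval -0.39 to 0.10, adjusted p = 0.61). Fgfr2 (ENSMUSG00000030849, chr7:130162451-133123350), whose IIIb form receives Fgf3 and Fgf10 in epithelium, had 165, 167, 154 and 156 CPM in K14;Nogo-A, against 144, 157 and 155 CPM in wild-type. The libraries of a genotype differed by no more than 1.09-fold. The log2 fold change was 0.08 (standard error 0.08, 95% interval -0.10 to 0.26, adjusted p = 0.71), the narrowest interval of the 10 members. With 1 library left out, Fgfr1 stayed between -0.20 and -0.10 and Fgfr2 between 0.04 (without wild-type replicate 3) and 0.11. Ctbp2, on the same strand, shares 314 bp with Fgfr2, 3.04% of its exon length. Gene counts add up the IIIb and IIIc forms, so their balance was not analysed here.

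Fgfr3 (ENSMUSG00000054252, chr5:33721674-33737068), a receptor kinase known for restraining cartilage growth, had 22.6, 19.8, 17.3 and 21.3 CPM in K14;Nogo-A replicates 1, 2, 7 and 10, against 25.2, 30.8 and 20.5 CPM in wild-type replicates 3, 8 and 9. Wild-type replicates 3 and 8 stood above all K14;Nogo-A libraries and wild-type replicate 9 lay among them. The log2 fold change was -0.33 (standard error 0.15, 95% interval -0.65 to -0.02, adjusted p = 0.37 and unadjusted p = 0.041 in edgeR's quasi-likelihood test), short of the study's 0.5. G630022F23Rik, on the opposite strand, shares 998 bp with Fgfr3, 13.9% of its exon length, and had 0 to 15 counts a library. The log2 fold change of Fgfr3 was -0.17 without wild-type replicate 8 and -0.46 without wild-type replicate 9. The Y-linked covariate gave -0.19 (adjusted p = 0.58 in edgeR's test). The 3 libraries with high Y-linked genes were the 3 highest for Fgfr3, at 22.6 CPM in K14;Nogo-A against 25.2 and 30.8 CPM in wild-type. Of the summed CPM per kb of the 4 receptor kinases, Fgfr1 made up 77.5% to 80.9% in K14;Nogo-A against 78.8% to 82.6% in wild-type. Fgfr2 made up 15.7% to 19.1% in K14;Nogo-A against 13.8% to 16.1% in wild-type. Fgfr4 stayed at or below 0.547% in every library. The ratio of Fgfr1 to Fgfr2 per kb was 4.65 ± 0.537 (SD, n = 4) in K14;Nogo-A against 5.45 ± 0.535 (SD, n = 3) in wild-type (p = 0.171 in an exact two-sided permutation test, adjusted p = 0.342 over 2 ratios).

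The Sprouty genes, a readout of FGF activity as well as its brake, overlapped between the genotypes. Spry2 (ENSMUSG00000022114, chr14:105891947-105896819) had 19.0, 21.3, 24 and 27.9 CPM in K14;Nogo-A replicates 1, 2, 7 and 10, against 19.8, 20.9 and 23.1 CPM in wild-type replicates 3, 8 and 9. The K14;Nogo-A pups spanned a 1.47-fold range that enclosed all wild-type pups. This gave a log2 fold change of 0.12 (standard error 0.14, 95% interval -0.18 to 0.42, adjusted p = 0.75). Spry4 (ENSMUSG00000024427, chr18:38586247-38601415) had 20.1, 19.4, 16.6 and 23.0 CPM in K14;Nogo-A, against 21.1, 24 and 19.1 CPM in wild-type. Its K14;Nogo-A over wild-type log2 fold change was -0.12 (standard error 0.13, 95% interval -0.41 to 0.18, adjusted p = 0.75). With 1 library left out, Spry2 ran from 0.01 (K14;Nogo-A replicate 10) to 0.20 (K14;Nogo-A replicate 1) and Spry4 from -0.20 (K14;Nogo-A replicate 10) to -0.02 (wild-type replicate 8). Spry1, which is no member, was the highest Sprouty gene per kb, at 19.3 CPM per kb against 10.7 for Spry2 and 4.30 for Spry4, and Spry3 was at 0.0653.

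The other genes of the pathway came from 4 lists with 67 genes, of which 59 were tested. At an adjusted p under 0.05 none was called by edgeR's quasi-likelihood test. Unadjusted, 4 higher and 7 lower genes had a p under 0.05, beside 6.25% and 6.66% of all genes tested. Past the study's thresholds 1 was higher and 5 were lower, beside 2.02% and 2.74% of all genes, and the median log2 fold change was -0.04. Feedback genes and transcriptional targets of FGF signalling (11 tested) had a median of -0.04, with 2 positive and 9 negative values. Etv5, an ETS factor induced by FGF, had 83.4 ± 9.95 CPM in K14;Nogo-A and 97.7 ± 0.803 CPM in wild-type (log2 fold change -0.23, standard error 0.10, adjusted p = 0.36). Spred2, a Sprouty-related inhibitor, had 44.9 ± 3.57 CPM in K14;Nogo-A against 53.0 ± 0.897 CPM in wild-type (log2 fold change -0.24, adjusted p = 0.32), with no K14;Nogo-A library as high as any wild-type library. Fgfbp1, a carrier that releases FGFs from the matrix, was the 1 gene higher past the thresholds, on 3 to 12 counts a library (log2 fold change 1.59, standard error 0.58, adjusted p = 0.30), and missed the P threshold without wild-type replicate 3 or 8. It passed the filter on low counts only through K14;Nogo-A, with 12 and 10 counts in replicates 1 and 2. Its place among the higher genes is therefore no support for a rise.

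Of 17 other ligand genes 11 were tested, and their median log2 fold change was 0.16, with none past the study's thresholds. Fgf1 had 25.5 ± 4.02 CPM in K14;Nogo-A and 18.8 ± 2.85 CPM in wild-type (log2 fold change 0.44, standard error 0.15, adjusted p = 0.28), the opposite sign to all 5 member ligands. Fgf12 and Fgf14, homologous factors like Fgf13, had log2 fold changes of 0.76 (standard error 0.41, adjusted p = 0.45) and -0.62 (standard error 0.42, adjusted p = 0.56). Fgf12 was 0.13 with the Y-linked covariate. Leaving out K14;Nogo-A replicate 1 gave 1.05 (adjusted p = 0.069), which is past the study's thresholds. Fgf14 was -0.27 without wild-type replicate 8. Fgf4, a ligand of the enamel knot, had at most 1 count a library. Among 15 tested receptors and adaptors the median was -0.04. Flrt3, a membrane protein that binds FGF receptors, had -0.73 (standard error 0.31, adjusted p = 0.37) and was the 1 gene past the thresholds. Leaving out wild-type replicate 8 gave -0.43 and the Y-linked covariate -0.35, both with P above 0.05. The P threshold was also missed when wild-type replicate 3, or any of K14;Nogo-A replicates 2, 7 and 10, was left out. The docking protein Frs2 had -0.18 (adjusted p = 0.48, -0.11 without K14;Nogo-A replicate 7) and the decoy receptor Fgfrl1 0.14 (adjusted p = 0.61, 0.05 without wild-type replicate 8).

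Heparan sulfate genes, which make and carry the chains that FGFs need for receptor binding, held the other 4 genes lower past the study's thresholds, Sdc3, Gpc5, Gpc6 and Sulf2 of 22 tested, with a median of -0.06 for the list. In each of the 4, no K14;Nogo-A library was as high as any wild-type library, and over the 59 genes 6 lay below in this way and 1 above, beside 6.09% and 5.43% of all genes tested. The core proteins Sdc3 and Gpc6 and the sulfatase Sulf2 had the smallest p. Sdc3 was at 253 ± 54.4 CPM in K14;Nogo-A and 392 ± 44.2 CPM in wild-type (log2 fold change -0.63, standard error 0.16, adjusted p = 0.20). It was called by edgeR's likelihood-ratio test (adjusted p = 0.028) and by DESeq2 (adjusted p = 0.015), and without K14;Nogo-A replicate 1 (-0.74, adjusted p = 0.035). Over all genes these called 166 (likelihood-ratio), 317 (DESeq2) and 221 genes, against 5 in the quasi-likelihood test of all 7 libraries. The mesenchyme covariate turned Sdc3 to 0.87, past the study's thresholds in the other direction (adjusted p = 0.73 in edgeR's test). That fit extrapolates, since the genotypes share no range of the mean of the mesenchyme markers. Gpc6 had -0.65 (standard error 0.20, adjusted p = 0.26) and Sulf2 -0.53 (standard error 0.17, adjusted p = 0.27). Their size was under 0.5 without K14;Nogo-A replicate 1, at -0.47 and -0.39, and Sulf2 also without wild-type replicate 8, at -0.43.

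Markers of mesenchyme were lower in K14;Nogo-A with no overlap of the list means, and the means of the other cell type lists overlapped. Log2 fold changes were also negative in 5 of 5 odontoblast (median -0.76), 8 of 9 endothelium (-0.47), 9 of 9 immune cell (-0.31) and 4 of 4 tested cartilage markers (-0.30). They were positive in 8 of 9 ameloblast (median 1.27), 11 of 12 epithelium (0.19) and 6 of 6 tested skeletal muscle markers (0.31). Schwann cell and neuron markers held 4 of each sign. Of the 24 mesenchyme markers, 24 had negative log2 fold changes, with a median of -0.55, 9 were lower past the study's thresholds, and 14 had no overlap, all lower in K14;Nogo-A. Their summed level was 12600 to 35000 CPM in K14;Nogo-A and 28900 to 43900 CPM in wild-type, and none was at 0. Ameloblast markers averaged 8.20 to 9.54 on the log2 CPM scale in K14;Nogo-A against 7.77 to 8.34 in wild-type, and epithelium markers 7.46 to 7.68 in K14;Nogo-A against 7.17 to 7.55 in wild-type. Odontoblast markers averaged 6.57 to 8.30 in K14;Nogo-A against 7.90 to 8.40 in wild-type, and endothelium markers 4.19 to 4.97 in K14;Nogo-A against 4.88 to 5.03 in wild-type. Immune cell, Schwann cell and neuron, cartilage and skeletal muscle markers overlapped, with means of at most 3.20 in all K14;Nogo-A and wild-type libraries. Their part in the levels of Fgf2, Fgf13 and Fgfr3 was not tested. With the mesenchyme markers as a covariate, the log2 fold change of Fgf2 was -0.85 (adjusted p = 0.83) and that of Fgf13 1.41 (adjusted p = 0.76), in a fit that extrapolates, since the genotypes share no range of the marker mean. Wild-type replicate 9 was the lowest wild-type library in 6 of the 10 members (Fgf2, Fgf3, Fgf10, Fgf13, Fgfr3 and Spry4) and the highest in 1 (Spry2).

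**Figure D5:**
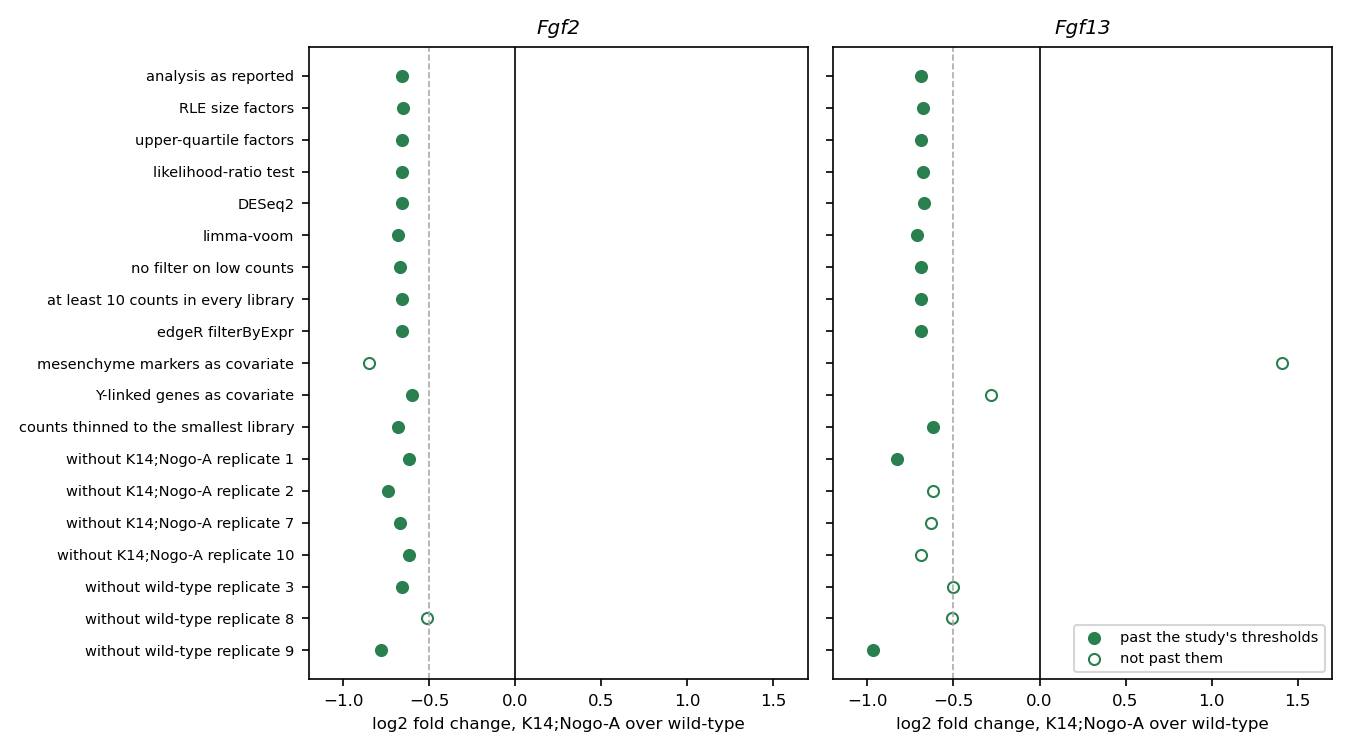
Log2 fold changes of Fgf2 (left) and Fgf13 (right), K14;Nogo-A over wild-type, under the reported analysis and 18 alternatives. Filled points are past the study's thresholds, open points are not, and the dashed line marks -0.5. Fgf2 stays negative throughout, between -0.85 and -0.51, and Fgf13 lies between -0.97 and -0.28 except for 1.41 with the mesenchyme markers as a covariate.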

How the data were processed

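RNA of the incisor epithelium of 7 pups was analysed. The study names 4 wild-type pups, and 1 of them is not analysed here. Per Ensembl gene, the authors deposited raw counts made from single-end poly(A) libraries with STAR 2.7.1 on GRCm38 and featureCounts. Adapter removal is given as Trimmomatic in the submitters' processing notes and as fastp in the paper. The labels name a stranded kit and the paper a kit without that word. Nothing but the counts was used.

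Symbols, exon lengths and coordinates came from GENCODE M21, and 25664 of 25700 IDs matched (the other 36 held 0.0348% of the counts). As in the study's methods, a gene was tested where 50% or more of the libraries of a genotype reached 10 counts, and library sizes were scaled by TMM. The main test was the robust quasi-likelihood test of edgeR 4.0.16 in R 4.3.3, without covariates, with Benjamini-Hochberg adjustment across all 14791 genes. Calls needed an adjusted p under 0.05. The study's fold threshold of 0.5 was read on the log2 scale. Log2 CPM used a prior count of 2, standard errors and 95% intervals came from the fit, and exact permutation tests enumerated 35 arrangements. The smallest chi-square per degree of freedom between 2 libraries was 16.6, so none was a repeat. Precision is set by the spread between pups (common biological coefficient of variation 15.2%). The fits were also run on simulated counts. Their recovery is not reported here, so the power to call changes of the members' size is not given.

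The members and lists were chosen with earlier results of these data known. All 10 members are named, and up to 3 genes with the smallest p of each of the 4 lists. Gpc5, Fgf4, Spry1, Spry3, Fgfr4 and Nudt6 were added after their values were seen. The 18 alternatives used other scaling (upper-quartile, RLE), other tests (limma-voom with limma 3.58.1, DESeq2 1.42.0 and a likelihood-ratio test in edgeR), 3 other filters, 2 covariates, thinned counts and each library left out.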

Additional observations from a re-analysis of the deposited data

Results flagged for a closer look

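Fgf10 in K14;Nogo-A replicate 2 stood apart from the other K14;Nogo-A libraries, at a log2 CPM of 4.22 against 3.72 to 3.80 in the other 3. The gap took 0.835 of the group's range, just above Dixon's 95% critical value of 0.829 for 4 samples. The 10 members were examined in this way, and chance marks about 1 in 20 such groups.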

How the results depend on the processing

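No member was called at an adjusted p under 0.05 in any of the 18 alternatives. The members kept their direction and their side of the study's thresholds in 164 of their estimates, lost those thresholds in 8 (all Fgf2 or Fgf13) and changed sign in 8. The number of members lower past the study's thresholds, 2 in the reported analysis, was 0 with the mesenchyme markers as a covariate, 1 with the Y-linked genes, and 0 to 2 with 1 library left out, at 0 without wild-type replicate 8. Of the other pathway genes, 1 was called at an adjusted p under 0.05 by the likelihood-ratio test and by DESeq2, and 0 to 1 with 1 library left out. Counts of higher genes past the thresholds were 0 with 10 counts in every library, with filterByExpr or with thinned counts, and 0 to 2 with 1 library left out (1 as reported, 0 if wild-type 8 or K14;Nogo-A 2 was dropped, 2 if wild-type 9 or K14;Nogo-A 1 or 10 was dropped). Lower genes, 5 as reported, numbered 8 with the mesenchyme markers and 2 to 4 with 1 library left out (2 if wild-type 8 was dropped, 3 if K14;Nogo-A 10 was). The mesenchyme covariate turned the sign of Fgf9 (0.68), Fgf13 (1.41), Fgfr1 (0.38), Fgfr3 (0.58), Spry2 (-0.12), Spry4 (0.50), Fgf1 (-0.37), Fgf12 (-1.38), Fgf14 (0.66), Flrt3 (1.12), Fgfrl1 (-0.20) and Sdc3 (0.87). That fit extrapolates for every gene, since the genotypes share no range of the marker mean, and the cause of the turns was not tested. Spry2 was at 0.00 with the Y-linked genes, and Fgf10 ranged from -0.39 to 0.06 with 1 library left out, turning sign without wild-type replicate 3. RLE and upper-quartile factors turned no member's sign. The K14;Nogo-A and wild-type labels share no replicate number, which does not tell whether pups were paired by litter. No litter was among the labels used here, so neither pairing nor litter was fitted.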
